A study of Mus musculus with 12 samples.

Results

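The 9 genes described here were Ell, Ell2, Ell3, Eaf1, Eaf2, Cstf2, Pou2af1, Pou2f2 and Igj, chosen by name as genes of secretory immunoglobulin mRNA processing and polymer assembly, and all 9 were found among the 24189 genes shared by the 10 RNA-seq tables. The tables held plasmablasts (PBs) and plasma cells (PCs) of C57BL/6 mice in 5 groups of 2 libraries each. The 3 PB groups were Xbp1 fl/fl (floxed, with no Cre; control PBs), Cd23-Cre Xbp1 fl/fl (Xbp1 deleted by a Cre that acts in mature B cells; Xbp1-deficient PBs) and Bhlha15 CreER/CreER (CreER inserted into both copies of Bhlha15, the gene of Mist1; CreER/CreER PBs), sorted by surface markers, CD138+ and CD23- among them, on day 8 of a culture on 40LB feeder cells with IL-4 and then IL-21. The 2 PC groups, labelled wildtype and Cd23-Cre Bhlha15 fl/fl (Bhlha15 deleted in mature B cells; Mist1-deficient PCs), came from spleens by a TACI+CD138+ sort 7 days after NP-KLH in alum was given; the study's sample list gives the PC control as Bhlha15 fl/fl. The floxed Bhlha15 allele carries a biotin acceptor tag, and the ages of these mice were not given in the sources used here. In addition, 2 ChIP-seq experiments on Bhlha15(fl/fl) R26(BirA/BirA) PBs, stimulated with LPS for 4 days, gave Mist1 peaks.

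Plasmablasts and plasma cells make large amounts of secreted antibody. Ell, Ell2 and Ell3 are elongation factors of RNA polymerase II, Eaf1 and Eaf2 bind Ell proteins, and Cstf2 (CstF-64) recognizes the RNA downstream of a cleavage site; in antibody-secreting cells Ell2 and Cstf2 are known for favouring the proximal poly(A) site, and hence the secreted form, of the immunoglobulin heavy chain mRNA. Pou2f2 (Oct2) binds the octamer motif of immunoglobulin promoters and Pou2af1 (OBF1) is its B cell coactivator. Igj encodes the J chain, which joins IgM pentamers and IgA dimers and is bound by the polymeric immunoglobulin receptor. The tables hold no rows for Ighm or Ighg1 in the PB libraries, so the heavy chain mRNA itself, secreted or membrane form, was not analysed here.

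Levels are given as TPM, read counts divided by gene length and rescaled to sum to 1000000 in each library, so they can be compared between genes; they carry no read depth, and the precision that depth gives is unknown. Per the study's methods, genes of immunoglobulins and T cell receptors did not enter that calculation, so every rank and share below is among the remaining genes. The deleted genes followed their labels. Bhlha15 stood at 159 to 176 TPM in control PBs, 2.60 to 3.57 in Xbp1-deficient PBs, 0.210 to 0.551 in CreER/CreER PBs, 242 to 258 in wildtype PCs and 14.4 to 16.6 in Mist1-deficient PCs. Xbp1 read 1981 to 2024 TPM in Xbp1-deficient PBs and 3043 to 3168 in control PBs, a measure that counts transcripts of the deleted allele too. Of 7 plasma cell markers none was at 0 in any group. Markers of feeder fibroblasts summed to 855 to 1647 TPM over 8 genes in the PB libraries and to 2.20 to 2.78 in the PC libraries, whereas 8 neutrophil markers summed to 441 to 943 TPM in PCs, 120 to 122 in Xbp1-deficient PBs and 1.08 to 8.41 in the other PBs; the part of these cells in the results below was not tested. In bulk libraries, fewer cells of a type and less RNA per cell cannot be told apart.

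Mist1 binds the E-box CANNTG, best as CAGCTG, and its peaks were present at 8 of the 9 genes. Of 23804 regions found in both ChIP-seq experiments (by an overlap of at least 1 bp between 29413 and 30247 peaks, mm9), 31 lay in these genes or within 10 kb of them, 9 of them within 1 kb of an annotated start site. Such a region was present at 54% of all 22372 protein-coding genes and at 79.6% of the 11720 expressed ones (1 TPM or more in 2 libraries or more), and a start-site region at 35.7% and 60.2%, so most expressed genes have one. Eaf1 alone had none within 10 kb. Pou2af1 (chr9:51021795-51048184, plus strand) had 10 regions, a number reached by 0.688% of all protein-coding genes and by 1.26% of the expressed ones. Ell2 had 5, Eaf2 and Pou2f2 had 4 each, Igj had 3, Ell and Ell3 had 2 each, and Cstf2 had 1. Peak heights were not analysed here, since the files give positions only, and the ChIP-seq cells were LPS-stimulated rather than grown on feeders.

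**Figure D1:**
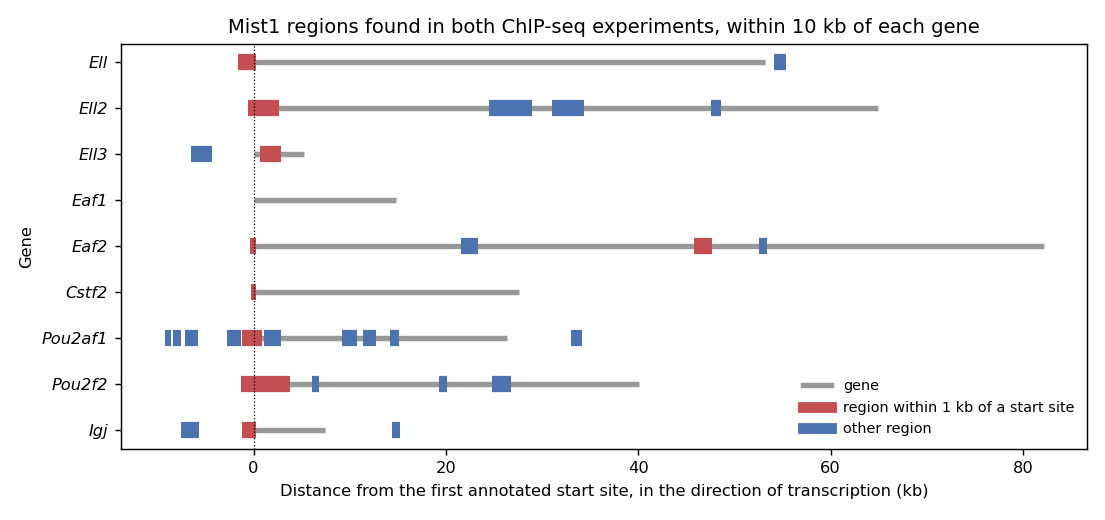
Mist1 regions shared by both ChIP-seq experiments (blocks) along each gene (grey line), with distance in kb from the upstream-most annotated start site in the direction of transcription. Pou2af1 carried 10 regions, 5 of them in the gene, and Eaf1 carried none.

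The widest of these regions spanned 5027 bp at the start of Pou2f2 (chr7:25913731-25918757, in mm9; the gene lies at chr7:25877472-25917507 on the minus strand). CAGCTG occurred 2 times in it. Windows of 60 bases around a CAGCTG, in capitals, are shown from the start-site regions of the 4 genes whose levels the results turn on or that lead their family, each in plus-strand letters of mm9 and outside annotated exons. They lie at chr7:25914970-25915029 (Pou2f2), chr16:36874630-36874689 (Eaf2), chr13:75844474-75844533 (Ell2) and chr5:88957856-88957915 (Igj).
Pou2f2: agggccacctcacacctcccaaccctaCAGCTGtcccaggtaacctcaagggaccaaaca
Eaf2: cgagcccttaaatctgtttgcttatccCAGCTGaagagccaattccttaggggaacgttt
Ell2: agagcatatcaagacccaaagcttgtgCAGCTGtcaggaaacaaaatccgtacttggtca
Igj: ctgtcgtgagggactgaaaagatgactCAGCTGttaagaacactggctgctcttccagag
CAGCTG was present in 67% of all common regions, at 1.04 per kb. In the regions of Pou2f2 it occurred 6 times (0.71 per kb), in those of Pou2af1 8 times (0.609 per kb), in those of Eaf2 5 times (0.961 per kb), in those of Ell2 7 times (0.582 per kb) and in those of Igj 1 time, at the place shown. The octamer ATGCAAAT, searched on both strands, was found in 10.3% of common regions; it occurred 3 times in the regions of Pou2af1, 2 times in those of Ell2 and 1 time in those of Pou2f2.

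The promoters of Pou2f2, Pou2af1 and Igj, the 250 bases before the RefSeq start (GRCm38.p6), each matched mm9 exactly once and fell inside a common Mist1 region. They are shown 5′ to 3′ in the direction of the gene because 1 of them falls without Mist1 in PCs, 1 rises and 1 falls without Xbp1 in PBs, with every CANNTG in capitals. Their places are chr7:25132461-25132710 (Pou2f2, minus strand), chr9:51213440-51213689 (Pou2af1, plus strand) and chr5:88527898-88528147 (Igj, listed by RefSeq as Jchain, minus strand).
Pou2f2: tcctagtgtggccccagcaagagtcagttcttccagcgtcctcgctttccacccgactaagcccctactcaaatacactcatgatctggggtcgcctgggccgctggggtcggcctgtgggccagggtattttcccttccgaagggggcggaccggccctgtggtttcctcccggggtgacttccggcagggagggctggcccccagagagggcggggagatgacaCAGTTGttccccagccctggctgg
Pou2af1: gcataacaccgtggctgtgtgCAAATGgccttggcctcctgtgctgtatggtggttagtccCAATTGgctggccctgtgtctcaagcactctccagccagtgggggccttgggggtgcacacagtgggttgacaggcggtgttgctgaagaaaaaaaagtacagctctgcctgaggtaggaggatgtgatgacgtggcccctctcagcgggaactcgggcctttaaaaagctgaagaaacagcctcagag
Igj: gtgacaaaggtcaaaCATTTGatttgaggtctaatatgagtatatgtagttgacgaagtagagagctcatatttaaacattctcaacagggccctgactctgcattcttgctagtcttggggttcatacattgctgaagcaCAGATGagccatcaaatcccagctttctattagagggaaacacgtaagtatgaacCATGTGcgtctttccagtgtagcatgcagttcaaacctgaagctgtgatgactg
A CANNTG was present in 9 of the 11 RefSeq promoters of the 9 genes and in 66.2% of all 32851 promoters. The stricter CAGCTG was found in 1 of the 11, that of Ell3, against 13% of all. The octamer ATGCAAAT was in none of the 11 and in 1.6% of all. CCACG, the part of the endoplasmic reticulum stress element that Xbp1 is known to bind with Atf6, was in the promoters of Ell, Eaf1 and Pou2af1 and in 28.3% of all, and ACGT, the core of a second Xbp1-bound element, was in 6 of the 11, that of Igj included, and in 26.9% of all.

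Ell2 was the dominant Ell paralog in every library. It read 682 and 647 TPM in control PBs, 751 and 816 in Xbp1-deficient PBs and 651 and 643 in CreER/CreER PBs. In the spleen it read 719 and 689 TPM in wildtype PCs and 630 and 601 in Mist1-deficient PCs. Its rank among all genes lay between 120 and 191 in the 10 libraries, and the whole range from lowest to highest library was narrow beside that of the other genes.

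Ell stood far below Ell2, at 20.4 and 22.5 TPM in control PBs, 25.6 and 26.2 in Xbp1-deficient PBs, 21.4 and 20.0 in CreER/CreER PBs, 32.6 and 32.1 in wildtype PCs and 31.3 and 34.5 in Mist1-deficient PCs. Every PC library was above every PB library. Ell3 was between 0.294 and 0.862 TPM in the 6 PB libraries, and it read 8.58 and 17.6 TPM in wildtype PCs and 12.5 and 15.1 in Mist1-deficient PCs. The wildtype pair of Ell3 differed by 1.03 on the log2 scale, the widest gap between replicates among the 9 genes. Ell3 (chr2:121264746-121270014, minus strand, mm9) shares 1436 of its 2190 exon bases with Serinc4 on the same strand, so its reads are uncertain; Serinc4 itself read 4.64 and 4.98 TPM in wildtype PCs and 3.01 and 2.09 in Mist1-deficient PCs. As a share of the summed TPM of the 3 Ell genes, Ell2 held 96.8% ± 0.33 (SD, n = 2) in control PBs, 96.7% ± 0.16 in Xbp1-deficient PBs and 96.8% ± 0.067 in CreER/CreER PBs, against 93.9% ± 0.93 in wildtype PCs and 92.9% ± 0.79 in Mist1-deficient PCs.

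Eaf1 was lower and Eaf2 higher in PCs than in PBs. Eaf1 read 77.1 and 81.6 TPM in control PBs, 93.2 and 99.9 in Xbp1-deficient PBs, 78.9 and 74.7 in CreER/CreER PBs, 43.5 and 51.3 in wildtype PCs and 54.3 and 53.6 in Mist1-deficient PCs. Eaf2 read 189 and 196 TPM in control PBs, 257 and 316 in Xbp1-deficient PBs, 226 and 254 in CreER/CreER PBs, 605 and 757 in wildtype PCs and 1071 and 997 in Mist1-deficient PCs. No PC library reached a PB library for Eaf1, nor a PB library a PC library for Eaf2, which read highest in the PCs without Mist1. Eaf2 formed 70.8% ± 0.31 of the summed Eaf1 and Eaf2 TPM in control PBs, 74.7% ± 1.8 in Xbp1-deficient PBs, 75.7% ± 2.2 in CreER/CreER PBs, 93.5% ± 0.26 in wildtype PCs and 95% ± 0.2 in Mist1-deficient PCs (SD, n = 2 each). Ell2 exceeded Eaf2 in all 6 PB libraries, by 2.53 to 3.6 times, lay at 0.91 and 1.19 times Eaf2 in wildtype PCs and was below it in Mist1-deficient PCs, at 0.588 and 0.603 times.

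**Figure D2:**
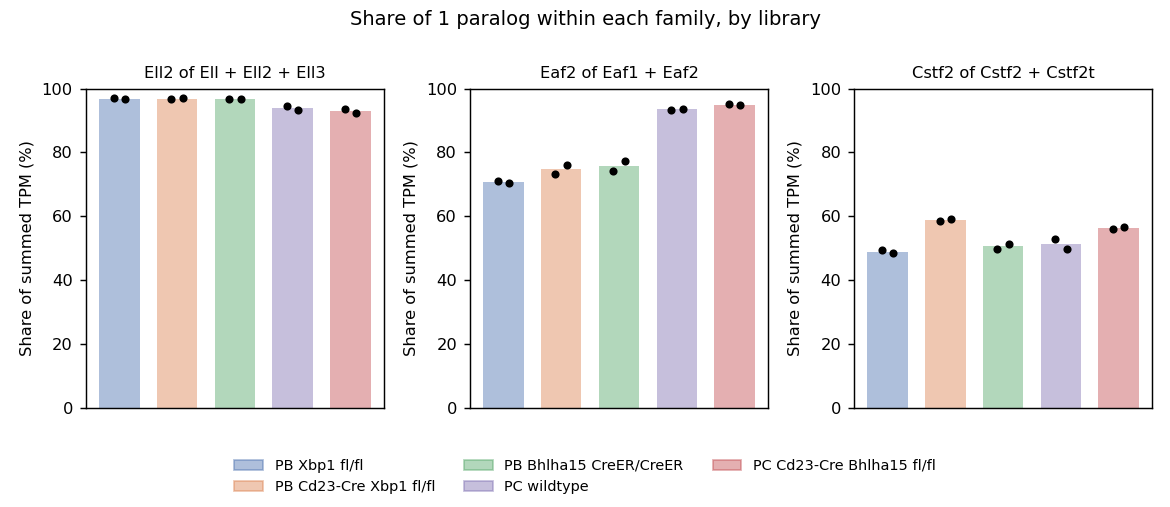
Share of Ell2, Eaf2 and Cstf2 in the summed TPM of each family, in percent, for the 5 groups; bars are means of the 2 libraries and points are the libraries. The Eaf2 share lay between 70.6% and 77.3% in PBs and between 93.3% and 95.2% in PCs.

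Cstf2 read 41.1 and 41.6 TPM in control PBs, 54.5 and 58.6 in Xbp1-deficient PBs, 43.1 and 40.6 in CreER/CreER PBs, 33.7 and 35.3 in wildtype PCs and 43.8 and 44.4 in Mist1-deficient PCs. On TPM as deposited, both groups with a Cd23-Cre deletion lay above their controls without overlap, as they did for Eaf1, Eaf2 and Pou2af1. In Xbp1-deficient PBs the median of all genes was 0.21 log2 units higher on this scale. The share of all genes that separate in this way was not computed, so no result is read from it. Its paralog Cstf2t, a product of retroposition that is known to share its RNA-binding role, lay between 30.1 and 44.0 TPM in the 10 libraries, so that Cstf2 made up 49% ± 0.58 of the pair in control PBs, 58.9% ± 0.45 in Xbp1-deficient PBs, 50.6% ± 1 in CreER/CreER PBs, 51.3% ± 2.1 in wildtype PCs and 56.4% ± 0.37 in Mist1-deficient PCs. Reads of such close copies can be split by counting. The names of Cstf2 and Pou2f2 carry a suffix, IMP_OVL, whose meaning was not given in the sources used here, and 399 of the 9180 exon bases of Cstf2 lie opposite Nox1 in the annotation.

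Pou2af1 was among the most abundant mRNAs of PBs, immunoglobulin genes left out. It read 3805 and 3741 TPM in control PBs, 4229 and 4607 in Xbp1-deficient PBs and 4203 and 4021 in CreER/CreER PBs, at rank 17 to 24. It read 1510 and 1579 TPM in wildtype PCs and 1937 and 1816 in Mist1-deficient PCs, at rank 35 to 52. Pou2f2 read 64.3 and 60.3 TPM in control PBs, 60.2 and 61.8 in Xbp1-deficient PBs, 53.2 and 52.5 in CreER/CreER PBs, 123 and 122 in wildtype PCs and 65.4 and 56.9 in Mist1-deficient PCs. Wildtype PCs therefore stood apart from the other 4 groups, and the PCs without Mist1 overlapped control and Xbp1-deficient PBs. The coactivator exceeded its partner 12.3 and 12.9 times in wildtype PCs, 29.6 and 31.9 times in Mist1-deficient PCs, and 59.2 to 79 times in PBs.

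With immunoglobulin genes left out, Igj had the highest TPM of all genes in each of the 4 PC libraries, and it ranked 1 to 3 in PBs. It read 21687 and 22486 TPM in control PBs, 14414 and 13743 in Xbp1-deficient PBs, 19269 and 21436 in CreER/CreER PBs, 76923 and 71198 in wildtype PCs and 74528 and 77502 in Mist1-deficient PCs. Both Xbp1-deleted libraries lay below the other PB libraries, and the PC groups overlapped. Igj thus took 1.37% to 2.25% of the TPM of the remaining genes in PBs and 7.12% to 7.75% in PCs. The tests below used TPM rescaled by median of ratios.

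**Figure D3:**
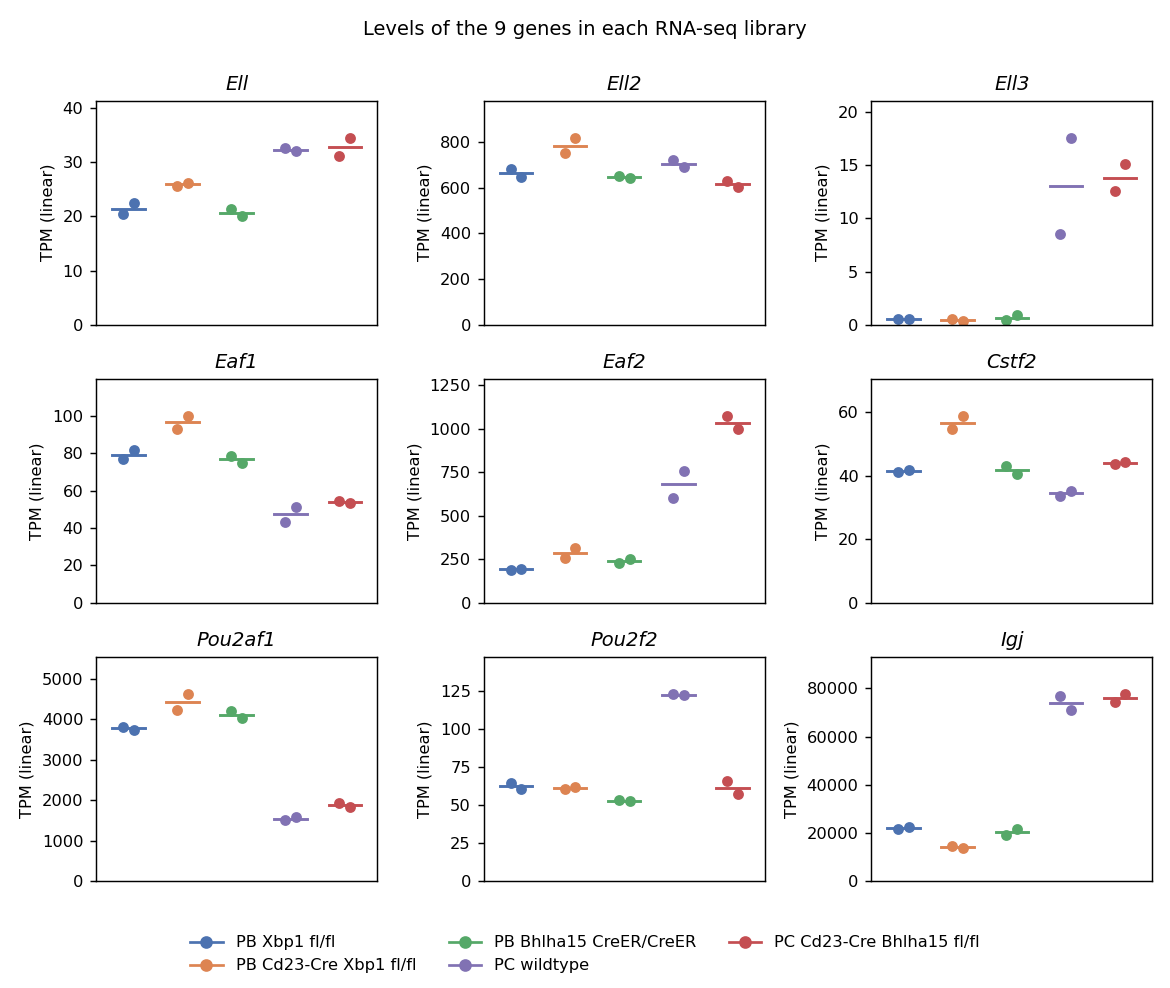
TPM (linear scale) of the 9 genes in each library, grouped by genotype; points are libraries and lines are means of 2. Wildtype PCs read 122 to 123 TPM for Pou2f2, against 52.5 to 65.4 in the other groups, and Igj read 71198 to 77502 TPM in PCs against 22486 or less in PBs.

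In wildtype PCs against control PBs, 8 of the 9 genes passed, Ell3 only with the limit given below, and Ell2 did not pass. Tests were made with limma on log2(scaled TPM + 0.1), and a gene passed at a Benjamini-Hochberg adjusted p under 0.05 over all genes tested. Of the 13230 genes tested, 38.4% passed as lower and 37.6% as higher in PCs, so that most genes differed between the stages. Among the elongation factors, Ell3 was higher by 4.11 log2 units (SE 0.40, limma adjusted p = 1.45e-05), Ell by 0.48 (SE 0.07, limma adjusted p = 0.000299), and Ell2 read -0.03 (95% interval -0.19 to 0.13, limma adjusted p = 0.725). Ell3 stayed below 1 TPM in every PB library and met the filter only through the PC libraries, so its direction was not free. Its size depends on the 0.1 added and ran from 3.0 to 4.6 over the alternatives. Eaf2 was higher by 1.70 (SE 0.12, limma adjusted p = 1.99e-06) while Eaf1 fell by 0.86 (SE 0.07, limma adjusted p = 3.04e-06). Cstf2 fell by 0.38 (SE 0.05, limma adjusted p = 0.000192). Pou2af1 fell by 1.40 (SE 0.08, limma adjusted p = 6.02e-07), whereas Pou2f2 rose by 0.86 (SE 0.08, limma adjusted p = 8.54e-06). Igj rose by 1.63 (SE 0.22, limma adjusted p = 0.000108). Quantile normalization, which forces all libraries to 1 distribution, brought Igj to 0.54 (adjusted p = 0.0951) and Ell2 to 0.17 (adjusted p = 0.0292). The groups differ in culture or spleen, sort gate and day, and these cannot be told apart from the stage.

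The 4 pathway lists are read beside the 38.4% of all genes that were lower and the 37.6% that were higher in PCs. Of 35 elongation partners tested, 10 were lower and 14 higher in PCs (median 0.02, against 0.0064 over all genes). Among those that passed, Zc3h8, a subunit of the little elongation complex, was higher by 1.96, and Ccnt2, a cyclin of P-TEFb, rose by 1.85 from 21.2 and 26.02 to 85.2 and 98.4 TPM. Nelfe, a subunit of the negative elongation factor, fell from 113.8 and 111 to 41.6 and 44.7 TPM. Of 29 cleavage, polyadenylation and splicing factors, 15 were lower and 9 higher (median -0.18), with Cpsf7 higher by 1.45 and Hnrnph1 by 1.146, and Pabpc1 lower, at -1.32. Of 17 octamer and plasma cell regulators, 1 was lower and 9 higher, led by Bach2 (3.12) and Zbtb20 (3.01), and Irf8 read -1.70. Of 23 genes of immunoglobulin folding and polymer assembly, 8 were lower and 7 higher. Those with the largest differences were Cd5l (5.32), an IgM-bound protein made by macrophages, Fcamr (4.06) and Ero1l (-2.08). Cd5l, Fcamr and Bach2 stayed below 1 TPM in every PB library and met the filter only through the PC libraries. The direction of these 3 was therefore not free, and their size depends on the 0.1 added. The 7 macrophage markers summed to 224 to 225 TPM in wildtype PCs and 134 to 136 in control PBs. Of 6 such markers tested, 5 were higher in PCs and 1 lower (median 5.57). C1qa and C1qb were at 0 in both control PB libraries. The part of macrophages was not tested.

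In PCs without Mist1, Pou2f2 fell and Eaf2, Cstf2 and Pou2af1 rose, while Ell, Ell2, Ell3, Eaf1 and Igj did not pass. Of the 12028 genes tested in the 4 PC libraries, 16.2% passed as lower and 13.3% as higher. Pou2f2 fell by 0.98 on the log2 scale (SE 0.08, limma adjusted p = 0.00184). It passed in all 12 alternatives, with values from -1.08 to -0.88. Eaf2 rose by 0.63 (SE 0.10, limma adjusted p = 0.00839), Cstf2 by 0.37 (SE 0.06, limma adjusted p = 0.00982) and Pou2af1 by 0.30 (SE 0.07, limma adjusted p = 0.0241). Each of these 3 kept its sign in the 12 alternatives, with ranges of 0.50 to 0.76, 0.35 to 0.40 and 0.26 to 0.34, but none of the 3 passed without either Mist1-deficient library (highest adjusted p 0.0561, 0.0945 and 0.254), and Pou2af1 also missed the threshold with no filter or no trend.

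Ell2 read -0.18 (95% interval -0.34 to -0.0077, limma adjusted p = 0.104) and passed as lower on TPM as deposited (-0.19, adjusted p = 0.0464), after quantile normalization (-0.23, adjusted p = 0.0219) and without the second wildtype library (-0.24, adjusted p = 0.02). Eaf1 read 0.21 (limma adjusted p = 0.092) and Ell 0.04 (limma adjusted p = 0.739). Without the second wildtype library, that with the higher Ell3 and Eaf1, 7 of the 9 genes passed, now with Eaf1 at 0.30 (adjusted p = 0.0171) and Ell3 at 0.66 (adjusted p = 0.0216). The background rose as well, with 36.2% of 11766 genes passing in either direction in place of 29.5%. That background fell without either Mist1-deficient library, so the calls lost there are not read as a trait of Eaf2, Cstf2 and Pou2af1. Igj read 0.06 (95% interval -0.44 to 0.56, limma adjusted p = 0.851). That interval is wide beside the gaps between its replicates, of 0.112 and 0.0564 log2 units.

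Of 6 B cell markers, 2 were lower and none higher in the PCs without Mist1 (median -0.17), with Ms4a1 (CD20) among them, which fell by 0.44. The 6 markers summed to 917 and 1223 TPM in wildtype PCs and to 694 and 766 in Mist1-deficient PCs, without overlap, in the same direction as Pou2f2. The 7 plasma cell markers summed to 7725 and 7064 TPM in wildtype PCs and to 8425 and 8101 in Mist1-deficient PCs. Of these 7, 1 was lower and 3 higher (median 0.25), in the direction of Eaf2, Cstf2 and Pou2af1. No marker of either list was at 0, and their part in the results was not tested. The pathway lists are read beside the 16.2% of all genes that were lower and the 13.3% that were higher, and no enrichment is claimed. Of 35 elongation partners, 2 were lower and 5 higher in PCs without Mist1 (median 0.06, against 0.014 over all genes). Hexim1, an inhibitor of P-TEFb, fell by 0.62, from 82.8 and 75.3 to 54.3 and 47.4 TPM, Nelfe was higher by 0.51 and Zc3h8 by 0.44. Of 29 cleavage and polyadenylation factors, 1 was lower and 4 higher, with Fip1l1, a subunit of the cleavage and polyadenylation specificity factor, at 0.51 (58.5 and 62.5 to 85.8 and 84.7 TPM), Hnrnph1 at 0.39 and Clp1 at 0.29. Of 17 regulators, 2 were lower, namely Bhlha15 itself and Zbtb20 (-0.47), and 2 higher, Irf4 among them (0.38). Of 23 folding and assembly genes, 3 were lower and 2 higher; P4hb, a disulfide isomerase, fell by 0.52, Mcfd2 fell by 0.50 and Ero1lb fell by 0.38.

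**Figure D4:**
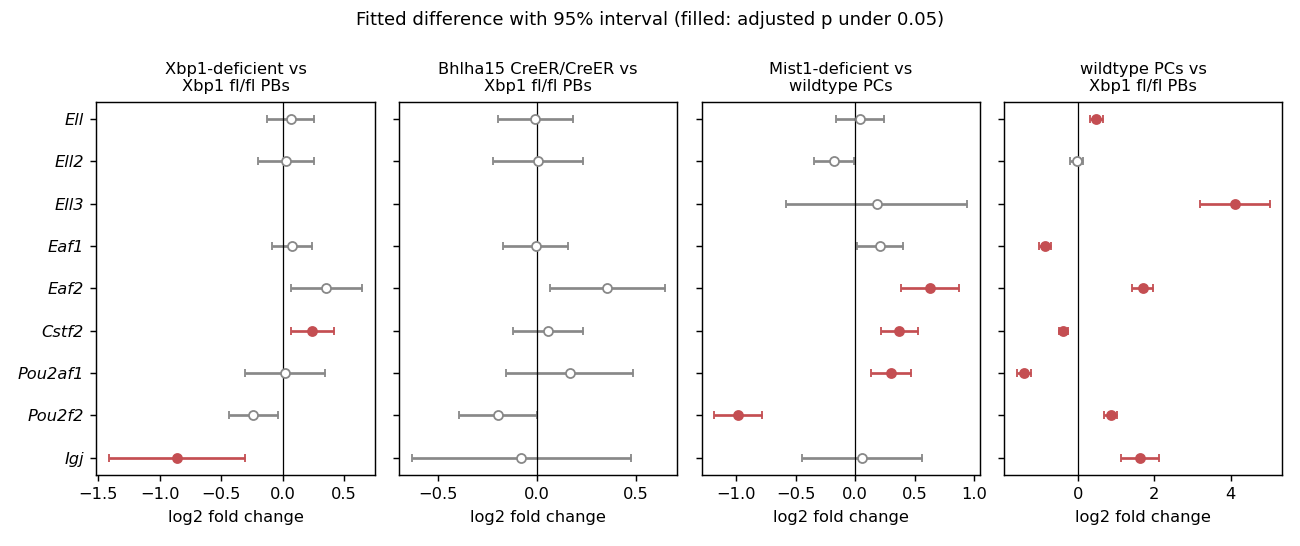
Log2 fold change of each gene with its 95% interval from limma in 4 comparisons (filled points: adjusted p under 0.05; Ell3 was below the filter in the PB tests; axes differ in range). Pou2f2 stood at -0.98 in Mist1-deficient PCs and at 0.86 in wildtype PCs against PBs.

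In PBs without Xbp1, Igj fell and Cstf2 rose, and the other 6 genes tested did not pass. Ell3 was not tested in PBs, since it stayed below 1 TPM. Of the 12125 genes tested, 18.0% passed as lower and 10.3% as higher. Igj fell by 0.86 (SE 0.24, limma adjusted p = 0.0298) and passed in 9 of 14 alternatives, missing the threshold with no filter and when any 1 of the 4 libraries compared was left out (adjusted p up to 0.261). Cstf2 rose by 0.24 (SE 0.08, limma adjusted p = 0.0476) and was lost in 6 of 14, with no filter, with no trend and when any 1 of these 4 libraries was left out (adjusted p up to 0.268). Eaf2 read 0.36 (95% interval 0.07 to 0.64, limma adjusted p = 0.0689) and Pou2f2 -0.24 (95% interval -0.44 to -0.04, limma adjusted p = 0.0745). Ell2 read 0.03 (95% interval -0.20 to 0.26, limma adjusted p = 0.862), Eaf1 0.07, Ell 0.07 and Pou2af1 0.02.

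The scale mattered for the size of these small values and for which of them passed, but not for their sign. On TPM as deposited the median of all genes moved to 0.21, with 1357 genes lower and 3423 higher in place of 2186 and 1250, and quantile normalization gave 1965 and 2513. With either, 6 members passed, Igj lower and Ell2, Eaf1, Eaf2, Cstf2 and Pou2af1 higher. On TPM as deposited, Ell2 at 0.24, Eaf1 at 0.28 and Pou2af1 at 0.23 lay near the shift of 0.21, and Eaf2 lay at 0.56. After quantile normalization the median of all genes was 0.07, and Ell2 read 0.28, Eaf1 0.20, Pou2af1 0.22 and Eaf2 0.53. Igj was lower under every scaling.

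Most genes of immunoglobulin folding and polymer assembly were lower in Xbp1-deficient PBs, and a link to the fall of Igj was not tested. Of 21 tested, 18 were lower and none higher, with a median of -1.74 against 0.0041 over all genes, and Xbp1 is known as a regulator of such genes. Erp44, which retains unassembled immunoglobulin, fell by 3.68 from 638 and 614 to 58.2 and 54.8 TPM, the chaperone Dnajb9 fell by 3.58 and Dnajb11 fell by 2.99. This list and the others are read beside the 18.0% of all genes that were lower and the 10.3% that were higher. No set test was run, and no enrichment is claimed. Of 35 elongation partners, 6 were lower and 6 higher (median 0.047). Nelfa fell by 0.87 and Nelfe fell by 0.73, and Aff1, a scaffold of the super elongation complex, rose by 0.59. Of 29 cleavage and polyadenylation factors, 5 were lower and 3 higher; the poly(A) polymerase Papola fell by 0.91, from 190 and 179 to 116 and 111 TPM, while Pabpc1 rose by 0.57 and Cstf1, a partner of Cstf2 in the CstF complex, by 0.42. Of 16 regulators, 2 were lower, Bhlha15 and Xbp1, and 2 higher, with Bcl6 at 0.50.

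In CreER/CreER PBs against control PBs, none of the 8 genes tested passed in limma or in any of the 14 alternatives, and 1, Eaf2, had an unadjusted p under 0.05. The background at the adjusted threshold was low, with 0.272% of genes lower and 0.0495% higher. At the unadjusted threshold it was 1267 of 12125 genes, so no result is read from that 1 gene. Eaf2 read 0.36 (95% interval 0.07 to 0.65, limma adjusted p = 0.378), Pou2f2 -0.20 (95% interval -0.39 to 0.0035, limma adjusted p = 0.489), Pou2af1 0.17 (95% interval -0.16 to 0.49) and Igj -0.08 (95% interval -0.63 to 0.48). On TPM as deposited, Pou2f2 read 52.5 and 53.2 in CreER/CreER PBs against 60.3 and 64.3 in control PBs. Igj read 19269 and 21436 against 21687 and 22486 TPM. The share of all genes whose groups do not overlap was not computed, so no result is read from such gaps. Bhlha15 was the only gene of the 4 pathway lists that passed. The 2 groups come from different mouse lines, and the line cannot be told apart from the CreER allele.

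Xbp1-deficient PBs were also set against CreER/CreER PBs, both of which had little Bhlha15 mRNA. Igj fell by 0.78 (SE 0.24, limma adjusted p = 0.0447), and no other member passed; the background was 17.8% lower and 9.34% higher. That call was lost in 8 of 14 alternatives, with adjusted p up to 0.316, though every value was negative, from -0.94 to -0.45. Eaf2 read -0.0022 (95% interval -0.29 to 0.29, limma adjusted p = 0.993), and Cstf2 0.18 (limma adjusted p = 0.115). On TPM as deposited the median of all genes moved to 0.26, with 1266 lower and 3977 higher in place of 2155 and 1132; quantile normalization gave 1858 and 2330. Folding and assembly genes gave 18 lower and 1 higher of 21 (median -1.67), led by Erp44 at -3.81. Elongation partners gave 6 lower and 4 higher of 35, with Nelfe at -0.97, cleavage factors 8 and 3 of 29, with Papola at -0.92, and regulators 1 and 2 of 16. This comparison shares its samples with the other 2 PB comparisons.

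The effect of Mist1 loss was compared between stages, as the difference in PCs minus the difference between CreER/CreER and control PBs, which rest on different alleles and controls. It passed for Pou2f2, at -0.77 (95% interval -1.02 to -0.52, SE 0.11, limma adjusted p = 0.00939), and for Cstf2, at 0.33 (SE 0.08, limma adjusted p = 0.0422). Over all 13230 genes, 4.17% passed as lower and 1.94% as higher, and quantile normalization turned 552 lower and 257 higher into 682 and 530. Pou2f2 passed in all 17 alternatives (-0.87 to -0.67) and Cstf2 in 4 of 17. For Eaf2 the difference was 0.29 (95% interval -0.11 to 0.68, limma adjusted p = 0.384) and for Pou2af1 0.15 (95% interval -0.12 to 0.41, limma adjusted p = 0.521), so a different size of effect in PCs was not shown for either. Of the pathway lists, Hexim1 (-0.72) and Bhlha15 itself passed.

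The genes whose log2 level followed these genes most closely over the 10 libraries were listed as a description among 9860 genes with a mean of at least 5 TPM; the points share 2 cell stages and their culture or tissue. For Pou2af1 they were Lamp2 (Pearson r 0.999), Cmtm6, 4632434I11Rik, Tspan31 and Bcam (0.997). For Igj they were Ggcx (0.997), Zfp110, Lax1, Pla2g6 and 4933421O10Rik (0.994). Ggcx, the vitamin K-dependent gamma-glutamyl carboxylase, had mean levels of 25.0 TPM in control PBs, 13.0 in Xbp1-deficient PBs, 25.5 in CreER/CreER PBs, 122 in wildtype PCs and 134 in Mist1-deficient PCs. For Eaf2 they were Thoc1 (0.994), A430035B10Rik, Slc25a23, Osbpl7 and Galt (0.992), of which A430035B10Rik had means of 8.46 TPM in control PBs, 30.5 in wildtype PCs and 57.4 in Mist1-deficient PCs. For Ell2, the flattest of the 4, they were Ddx21 (0.953), Eif2b5, Higd2a, Mzt2 and Tsc22d4 (0.927).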

How the data were processed

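Per the labels and the study's methods, the authors trimmed reads with cutadapt, aligned them to mm9 with STAR 2.4.2, counted them with featureCounts 1.5 and deposited TPM per gene, normalised within each library without the genes of immunoglobulins and T cell receptors; replicates were not pooled and were 2 experiments per group, numbered here in accession order. The strand setting of the counting was not given in the sources used here. There were 24732 genes in each PC table and 24189 in each PB one; _IMP_OVL suffixes on names, of meaning not given, were removed. Deposited ChIP-seq peaks are other values, namely start and end positions (Bowtie 1.0.0, MACS per experiment).

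TPM were rescaled by median of ratios within each model, genes that reached 1 TPM in 2 or more libraries were kept, and log2(TPM + 0.1) was tested with limma 3.58.1 (R 4.3.3; trended eBayes). PBs (6 libraries) and PCs (4 libraries) were fitted apart, comparisons across stages with all 10. Fold changes on this scale understate those of low genes. A fit on simulated data for Xbp1 loss in PBs (11890 genes) recovered 66.7% of genes changed by 1 log2 unit, 33.3% of those changed by 0.5 and 2% of those changed by 0.25. For Mist1 loss in PCs (11840 genes) it recovered 56%, 16.3% and 0%. In both, 48 to 50 genes were changed at each size, far fewer than the 28.3% and 29.5% of genes that passed in the data. The adjusted threshold is stricter with so few changes, so these rates do not measure the power of the tests above. Regions were compared with bedtools 2.31.1 against GENCODE M1 on mm9; promoters came from RefSeq. As alternatives, values were left unscaled or quantile normalized, the pseudocount was set to 1 or 0.01, the filter was dropped or raised to 5 TPM, and the trend was dropped; other sets of libraries were tried, and each library was left out in turn.

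The 9 genes, the 4 pathway lists and the tests were chosen with earlier results of these data known. List genes named were up to 3 with the largest change among those that passed; for Ell2, Eaf2, Pou2af1 and Igj, the 5 most correlated genes. Of the list genes, Ice1 and Hba-a1 were not matched. Of the B cell marker list, 1 gene is not reported by name here.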

Additional observations from a re-analysis of the deposited data

Results flagged for a closer look

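Cstf2 and Pou2f2 passed the test of a difference between the stages in their response to Mist1 loss in the main fit. For Pou2f2 the effect in PCs minus that in PBs was -0.77 on the log2 scale (limma adjusted p = 0.00939), from -0.98 in PCs and -0.20 in PBs. For Cstf2 it was 0.33 (limma adjusted p = 0.0422), from 0.37 in PCs and 0.06 in PBs. The test for Cstf2 lost its call in 13 of 17 alternatives (adjusted p up to 0.142), and that for Pou2f2 passed in all 17. The PB arm compares Bhlha15 CreER/CreER with Xbp1 fl/fl cells and the PC arm Cd23-Cre Bhlha15 fl/fl with wildtype cells. The allele, the mouse line and the control therefore cannot be told apart from the stage.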

How the results depend on the processing

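Counts of the 9 genes that passed were recomputed under each alternative, with the share of all genes that passed in brackets where shown. For Xbp1 loss against Xbp1 fl/fl PBs (2 in the report, 28.3%) they were 6 on TPM as deposited (39.4%) and 6 after quantile normalization (36.9%). They were 0 without a filter (15.5%), 1 without the trend (22.3%) and 4 with only the 4 libraries compared (35.3%). Against CreER/CreER PBs (1 in the report, 27.1%) they were 6 as deposited (43.2%) and 4 after quantile normalization (34.5%). They were 0 with a pseudocount of 1 (27.2%), 0 with 0.01 (26.9%), 0 without a filter (14.5%) and 0 with the 4 libraries (22.6%). Both sets of counts also moved when a library was left out. For Mist1 loss in PCs (4 in the report) leaving out a library gave 1 to 7, with 1 gene, Pou2f2, left without either Mist1-deficient library. The share of all genes that passed for Mist1 loss in PCs, 29.5% in the report, moved in the same direction. It fell without either Mist1-deficient library and rose without the second wildtype library. Each such fit leaves 1 library in a group, so no trait of the 9 genes is read from these counts. For the difference of the Mist1 effect (2 in the report, 6.11%) the counts were 1 as deposited (6.39%), 1 without a filter (2.87%) and 1 without the trend (2.44%). For PCs against PBs the count stayed at 8, Ell3 included, and for CreER/CreER PBs at 0, in every alternative. Pou2f2 in Xbp1-deficient against CreER/CreER PBs turned from -0.04 to 0.21 (adjusted p = 0.0361) as deposited, and Ell2 in PCs against PBs from -0.03 to 0.17 after quantile normalization. Of 759 values of genes under alternatives, 652 kept direction and side of the threshold, 41 lost the call, 28 gained it, 2 were those turned and 36 changed sign without passing either way. The causes were not tested, except that leaving a library out removes samples. Mist1 regions lay at 8 genes within 2.5 kb (72.5% of expressed genes) or with 50% overlap (77.4%), and at 9 within 50 kb (91.6%). No paired analysis was possible because the labels give no replicate numbers. TPM hold no depth, so its limits are unknown.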
